A study of Mus musculus with 36 samples.

Results

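The comparison is between Taf1 knockout and control cells on day 7 of an in vitro granulocyte course, 3 libraries of each, which are 6 of the 36 libraries of the series. They were chosen by their labels alone, and every gene of the table was considered. The starting cells were HSPCs, the haematopoietic stem and progenitor cells of mouse bone marrow, labelled wild type (WT) in the controls and Taf1 KO in animals with a conditional Taf1 knockout. Both groups were first expanded for 3 days in medium with 20% horse serum, stem cell factor (SCF) and interleukin 3 (IL-3). They then had SCF, IL-3 and granulocyte colony-stimulating factor (G-CSF) for 2 days, and 2 final days with G-CSF as the only cytokine, each one at 50 ng/ml. Another portion of the expanded cells went into a macrophage course with GM-CSF and M-CSF, and its day 7 libraries serve below as a comparison, as do the day 5 libraries of the granulocyte course. The labels give no age, no driver of the deletion, no deleted part of Taf1, and nothing on whether the 3 libraries of a group stem from different animals. P-values therefore measure only a spread between libraries, which may be technical. For the genotype comparison that spread was pooled over all 24 libraries of the granulocyte course, not taken from these 6 alone.

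TAF1 is the scaffold-forming large subunit of TFIID, which joins the TATA-binding protein (TBP) to its associated factors (TAFs). TFIID recognises core promoters and starts the assembly of the RNA polymerase II machinery. TAF1 contacts core promoter DNA and carries bromodomains that bind acetylated histones. In the neutrophil lineage, promyelocytes make the primary (azurophil) granule proteases, myelocytes and metamyelocytes the secondary and tertiary granule proteins under CEBPE and GFI1, and mature cells the chemokine receptor CXCR2. Progenitors kept in SCF and IL-3 can also yield mast cells, megakaryocytes, macrophages and eosinophils, so markers of these lineages were read in the same libraries.

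Because TFIID acts at core promoters, the stretch where a TATA box would lie is shown for genes among the largest changes. Of the 15 largest rises and 15 largest falls, 21 had an entry in the RefSeq promoter table (GRCm38.p6, which is mm10) and 17 had exactly 1. The sequences below are the 60 bases before the RefSeq start of the 3 largest rises and 3 largest falls with 1 entry and a window outside the annotated gene, 5′ to 3′ on the gene's strand. Capitals mark the letters TATAAA, which were sought on both strands.
Cxcl3: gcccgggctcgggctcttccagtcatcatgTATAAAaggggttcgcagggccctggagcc
Ccl12: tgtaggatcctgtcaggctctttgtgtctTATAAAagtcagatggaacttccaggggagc
Gm13546: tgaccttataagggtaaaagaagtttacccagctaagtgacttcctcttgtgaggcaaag
Apoc2: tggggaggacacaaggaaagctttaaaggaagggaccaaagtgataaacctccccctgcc
Gbgt1: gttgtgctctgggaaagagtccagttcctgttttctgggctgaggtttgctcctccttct
Mmp14: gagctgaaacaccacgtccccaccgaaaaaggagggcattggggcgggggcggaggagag
Cxcl3 (a neutrophil-attracting chemokine, chr5:90786041-90786100, plus strand) had the letters with their first base 30 bases before the start. Ccl12 (a monocyte-attracting chemokine, chr11:82101785-82101844, plus strand) had them 31 bases before it. The window of Gm13546 (an antisense transcript, chr2:58163914-58163973, plus strand) lacked these letters. So did those of Apoc2 (chr7:19677942-19678001, minus strand), Gbgt1 (chr2:28496831-28496890, plus strand) and Mmp14 (chr14:54431538-54431597, plus strand), the 3 genes that fell. Over all 32851 promoters of the table, 3.92% held the letters in this window. These are matches of letters in 6 promoters, not a comparison of the groups of genes.

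The neutrophil alarmins S100a8 and S100a9 together took 11.1% to 16.3% of the TPM (transcripts per gene length, scaled to a fixed total). In these libraries 10596 to 10965 genes reached 1 TPM. Mature neutrophil surface and signalling genes, a list that includes S100a8 and S100a9, summed to 152300, 160900 and 117300 TPM in the controls. Most of each of these sums came from S100a8 and S100a9. In the macrophage course controls the same list still summed to 37260 to 68750 TPM. Macrophage genes summed to 9501, 10930 and 14290 TPM in the controls, which overlapped the 13610 to 18350 TPM of the macrophage course controls. The labelled cell type was thus not established by these sums, and the mix of cell types was not tested. TPM keeps no record of read depth, so intervals from counting cannot be attached to these values. Knockout replicate 1 stood between the controls and the other knockout libraries: its correlation over genes with the controls was 0.967 to 0.969, against 0.946 to 0.96 for knockout replicates 2 and 3. The short structural RNAs Rpph1 and Rmrp took 2.29% and 2.33% of the TPM in knockout replicates 2 and 3 and 7% to 10.1% in the other libraries. Histone genes took 3.33% and 3.6% there and 5.21% to 6.5% elsewhere. Since TPM adds up to a fixed total, large shares move all other values; their part in the results was not tested beyond the rescaled values given below. Counts are therefore also given without knockout replicates 2 and 3, which leaves 1 knockout library assumed to vary like the other groups. In bulk RNA, fewer cells of a type and less RNA per cell cannot be told apart.

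Library values are listed in the order of replicates 1, 2 and 3, and changes are differences of mean log2(TPM + 1) (n = 3 libraries a group). Their standard errors are those of limma and use the spread pooled over all groups of the fit. Adjusted p-values come from limma with Benjamini-Hochberg adjustment over 11905 tested genes. At an adjusted p of 0.05, 5250 genes (44.1% of those tested) passed, 3825 higher in the knockout (32.1%) and 1425 lower (12%). With the 2 groups fitted alone 3958 genes passed. The median over all genes was log2 0.17. Median-of-ratios scaling shifted it by -0.17 to 0.00, and the split became 2600 higher (21.9%) and 2779 lower (23.4%). Without knockout replicates 2 and 3 it was 844 higher (7.12%) and 739 lower (6.23%). The libraries of the groups did not overlap for 4028 genes that were higher (33.8%) and 1871 that were lower (15.7%). Where 5 or fewer members of a list moved one way, members outside the naming rule that are named were chosen after their values were seen. A call is called borderline where leaving out at least 1 of the 6 libraries ended it, and the value without the library that reduced it most is given. Fewer libraries also give less power, so a lost call alone does not mean that the change was smaller. Without knockout replicates 2 and 3 the calls of Atp6v0d2, Bok, Cd36, Chil3, Ear6, Ebp, Ffar2, Gtf2a1, Hp, Mcpt2, Med21, Pdia4, Pmvk, Pparg, Psmd11, Rps27l, Runx1, Slc7a5, Slpi, Stfa2, Thy1 and Tk1, named below, also did not pass. Some of these changes then stayed near their size (1.18 for Stfa2, 0.98 for Slc7a5) and others shrank (0.32 for Slpi, -0.42 for Tk1).

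**Figure D1:**
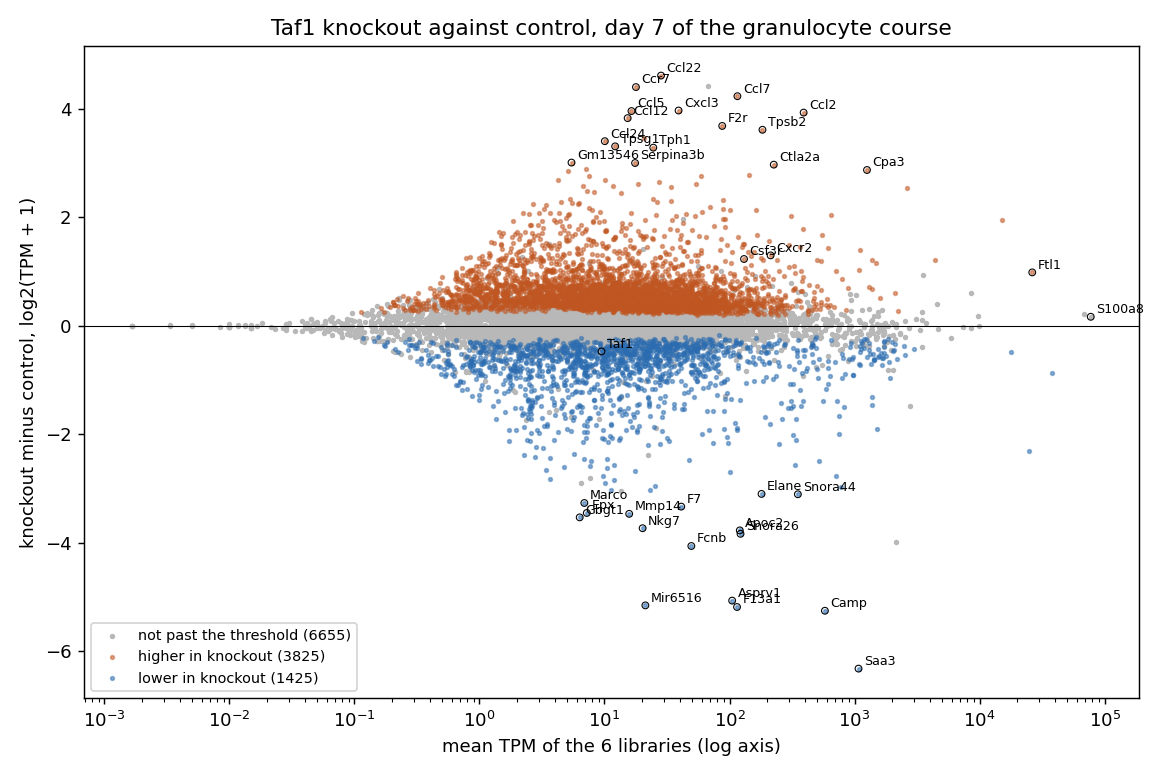
Change of each tested gene in the Taf1 knockout at day 7 of the granulocyte course (vertical axis, difference of mean log2(TPM + 1)) against its mean TPM over the 6 libraries (horizontal axis, log scale). Orange points (3825) passed as higher, blue points (1425) as lower and grey points did not pass; Saa3 lies lowest at -6.32 and Ccl22 highest at 4.61.

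Saa3, a serum amyloid A of the acute phase, had the largest fall. It stood at 1747, 2106 and 2521 TPM in the controls and 15.01, 35.05 and 30.6 TPM in the knockout, and fell by 6.32 ± 0.27 (limma adjusted p = 6.05e-13). Every knockout library was more than an order of magnitude below every control library. Of the 15 largest falls, Camp, Nkg7, Epx, Marco and 3 short RNAs are described with their groups below, and the other 7 here. F13a1, a chain of coagulation factor XIII made by monocytes, stood at 246, 294 and 132 TPM in the controls and 10.3, 2.71 and 3.83 TPM in the knockout (log2 -5.18 ± 0.36, limma adjusted p = 1.46e-09). F7, coagulation factor VII, stood at 69.04, 78.6 and 79.1 TPM in the controls and 5.65, 6.62 and 7.58 TPM in the knockout (log2 -3.33 ± 0.29, limma adjusted p = 3.93e-08). The knockout libraries of both coagulation genes lay below all controls by the rule of choice. Their spread was small for F7, and replicate 1 was the highest of them for F13a1. Fcnb, a myeloid ficolin of complement activation, stood at 118, 107 and 57.2 TPM in the controls and 7.48, 3.17 and 3.57 TPM in the knockout (log2 -4.06 ± 0.49, limma adjusted p = 2.39e-06). Apoc2, an apolipoprotein that activates lipoprotein lipase, stood at 217, 238 and 220.2 TPM in the controls and 21.4, 18.4 and 9.37 TPM in the knockout (log2 -3.77 ± 0.25, limma adjusted p = 9.09e-10). Asprv1, a retroviral-like aspartic protease, fell from 209, 221 and 179 TPM to 15.2, 2.98 and 2.46 TPM (log2 -5.07 ± 0.41, limma adjusted p = 1.47e-08). Mmp14, a membrane-bound matrix metalloproteinase, stood at 23.1, 30.6 and 35.6 TPM in the controls and 1.35, 1.76 and 2.17 TPM in the knockout (log2 -3.47 ± 0.20, limma adjusted p = 7.18e-11). That the groups lay apart in these genes follows from the rule of choice. For Fcnb, Apoc2 and Asprv1 replicate 1 was the highest knockout library. Gbgt1, a glycosyltransferase of the ABO gene family, went from 11.02, 11.2 and 15.3 to 0.10, 0.23 and 0.14 TPM (log2 -3.53 ± 0.12, limma adjusted p = 2.37e-14).

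Taf1 itself (chrX:101532734-101601789, mm10) was lower but not lost. Its level was 10.2, 12.1 and 11.2 TPM in the controls and 6.65, 8.66 and 8.01 TPM in the knockout, and it fell by 0.47 ± 0.11 (limma adjusted p = 0.0012). All 3 knockout libraries lay below all 3 controls. Since the labels do not say which exons were removed, transcripts of a deleted allele may be counted in these values, and the gene-level TPM does not separate them. Most other TFIID subunits moved the other way: of 15 list members measured, 9 rose, Taf1 alone fell and 5 did not pass, with a median of 0.36. Over all tested genes, 32.1% were higher and 12% lower. After scaling 6 rose, and without knockout replicates 2 and 3 4 rose, and Taf1 fell in both.

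Taf12 and Taf13, small histone-fold subunits, had the largest changes of the complex. Taf12 stood at 26.6, 29 and 33.6 TPM in the controls and 61.1, 74.9 and 71.4 TPM in the knockout and rose by 1.19 ± 0.10 (limma adjusted p = 4.98e-08). Taf13 stood at 12.6, 13.9 and 16.8 TPM in the controls and 30.6, 37.9 and 32.7 TPM in the knockout and rose by 1.17 ± 0.14 (limma adjusted p = 2.07e-06). In both the lowest knockout library was well above the highest control. Taf6, a histone-fold subunit that pairs with Taf9, stood at 20.5, 21.4 and 22.4 TPM in the controls and 36.1, 39.5 and 38.1 TPM in the knockout and rose by 0.79 ± 0.10 (limma adjusted p = 6.2e-06). Taf10, shared with the SAGA coactivator, rose by 0.56 ± 0.082 (limma adjusted p = 2.16e-05). Taf4b, a gonad-enriched paralogue of Taf4, rose by 0.83 ± 0.19 (limma adjusted p = 0.00185) and Taf5, the WD40-repeat scaffold subunit, by 0.59 ± 0.17 (limma adjusted p = 0.00709). Without knockout replicates 2 and 3 their changes were 0.84 and 0.64, not smaller, though neither passed. Taf2, Taf3 and Taf11 also rose, by 0.41 ± 0.16 (limma adjusted p = 0.036), 0.27 ± 0.094 (limma adjusted p = 0.024) and 0.35 ± 0.11 (limma adjusted p = 0.0128). The calls for these 3 were lost after scaling and on leaving out single libraries: control replicate 1 or knockout replicate 2 for each, control replicate 2 for Taf2 and Taf3, and knockout replicate 3 for Taf2 and Taf11. Their changes were 0.20 to 0.41 on these omissions, and after scaling 0.23 for Taf2, 0.13 for Taf3 and 0.16 for Taf11. Tbp, the DNA-binding core, had a change of 0.24 ± 0.11, Taf7 of 0.23 ± 0.12, Taf9 of 0.17 ± 0.11 and Taf8 of 0.10 ± 0.14. The last 2 took the opposite sign after scaling. Taf9b, a paralogue of Taf9, had a change of 0.36 ± 0.17 and passed only on leaving out control replicate 3 (0.51) or knockout replicate 1 (0.53).

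In the remaining transcription machinery more genes rose than fell, as was the case for all tested genes (32.1% higher and 12% lower). After scaling the shares over all tested genes were 21.9% higher and 23.4% lower, and the counts below are to be read beside them. Few of the calls in the machinery were made without knockout replicates 2 and 3. Of 17 general transcription factor genes 10 rose and none fell; after scaling 8 rose and 1 fell, and without knockout replicates 2 and 3 1 rose. Gtf2h3, a subunit of the TFIIH helicase complex, stood at 6.62, 7.31 and 7.67 TPM in the controls and 13.2, 16.3 and 14.5 TPM in the knockout and rose by 0.93 ± 0.13 (limma adjusted p = 1.13e-05). Gtf2a1, the large TFIIA subunit that stabilises TBP on DNA, rose by 0.99 ± 0.19 (limma adjusted p = 0.000373). Among 12 RNA polymerase II subunits 7 rose and none fell; 4 rose after scaling and 3 without knockout replicates 2 and 3. Polr2f, a subunit shared by all 3 nuclear polymerases, stood at 54.9, 53.7 and 71.1 TPM in the controls and 98.4, 109.6 and 119.8 TPM in the knockout and rose by 0.86 ± 0.13 (limma adjusted p = 2.36e-05). Mediator links activators to the polymerase, and its list had 15 of 31 higher and 3 lower, 8 and 3 after scaling and 2 and 1 without knockout replicates 2 and 3. Without control replicate 1, knockout replicate 2 or knockout replicate 3 the higher genes numbered 5, 7 and 7. Med23 rose by 0.66 ± 0.092 (limma adjusted p = 1.36e-05), whereas Med21 (a small subunit of the middle module) went from 73.1, 77.2 and 57.9 to 47.3, 32.7 and 38.6 TPM and fell by 0.80 ± 0.15 (limma adjusted p = 0.000245). The other 2 that fell were Med16 (borderline, -0.26 without control replicate 3) and Med11 (borderline, -0.20 without control replicate 3). For P-TEFb and elongation factors 12 of 20 rose and 1 fell, 9 and 2 after scaling and 2 and 1 without knockout replicates 2 and 3. Hexim1, the inhibitory partner of P-TEFb, stood at 13.5, 14.9 and 15.6 TPM in the controls and 30.4, 35.7 and 42.9 TPM in the knockout and rose by 1.24 ± 0.11 (limma adjusted p = 3.47e-08). Larp7, which stabilises the 7SK RNA of the same inhibitory particle, fell by 0.70 ± 0.14 (limma adjusted p = 0.000462). The 2 thus moved in opposite directions, and in both genes the groups did not overlap.

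Primary granule genes, made early in neutrophil maturation, were mostly lower. Of 13 tested members 9 fell and 1 rose, with a median of -1.19; without knockout replicates 2 and 3 the counts were 3 lower and 1 higher and the median -0.41. Elane, neutrophil elastase, stood at 400.4, 346 and 189.7 TPM in the controls and 109, 18.04 and 19.1 TPM in the knockout. It fell by 3.10 ± 0.48 (limma adjusted p = 4.2e-05), and replicate 1 was the highest of the knockout libraries but below all controls. Prtn3, proteinase 3, stood at 1293, 1150.5 and 836 TPM in the controls and 807, 212 and 225 TPM in the knockout and fell by 1.67 ± 0.38 (limma adjusted p = 0.00159). Mpo, myeloperoxidase, stood at 892, 799.7 and 582 TPM in the controls and 739.8, 178 and 175 TPM in the knockout and fell by 1.39 ± 0.36 (limma adjusted p = 0.00416). Here knockout replicate 1 lay within the control range, and only replicates 2 and 3 were low. Ctsg, cathepsin G, stood at 901, 796 and 688 TPM in the controls and 623, 259 and 274 TPM in the knockout and fell by 1.16 ± 0.26 (limma adjusted p = 0.00128). Without knockout replicates 2 and 3 the changes of Prtn3 (-0.41), Mpo (-0.01) and Ctsg (-0.34) did not pass, and Mpo also not when the 2 groups were fitted alone. Nkg7, a granule membrane protein, stood at 47.6, 40.9 and 26.6 TPM in the controls and 3.12, 0.95 and 1.97 TPM in the knockout and fell by 3.73 ± 0.28 (limma adjusted p = 6.65e-09). Lyz1, a lysozyme, stood at 24.1, 26.1 and 21.7 TPM in the controls and 6.64, 4.33 and 5.97 TPM in the knockout and fell by 1.92 ± 0.14 (limma adjusted p = 3.55e-09); reads may be split between it and its near-identical copy Lyz2. The member that rose was Srgn, the proteoglycan that packs granule proteases, at 844, 851 and 739 TPM in the controls and 1411, 2198 and 2161 TPM in the knockout (log2 1.22 ± 0.17, limma adjusted p = 1.05e-05).

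Among secondary granule genes 6 of 14 fell and 1 rose, with a median of -0.92; 3 fell without knockout replicates 2 and 3. Camp, the cathelicidin antimicrobial peptide (chr9:109847379-109849617, mm10), stood at 1534, 1349 and 511 TPM in the controls and 45.3, 18.1 and 20.6 TPM in the knockout. It fell by 5.25 ± 0.64 (limma adjusted p = 2.75e-06). Cybb, the catalytic subunit of the NADPH oxidase, stood at 453, 462 and 306 TPM in the controls and 146, 115 and 107 TPM in the knockout and fell by 1.71 ± 0.27 (limma adjusted p = 5.35e-05). Hp, haptoglobin, stood at 1378, 1328 and 935 TPM in the controls and 596, 351 and 365 TPM in the knockout and fell by 1.49 ± 0.32 (limma adjusted p = 0.00092). In each of these genes all knockout libraries were below all controls, which for Camp was a condition of its choice as a largest fall. Ngp, neutrophilic granule protein, stood at 4976, 4623 and 2707 TPM in the controls and 1996, 1213 and 1203 TPM in the knockout, and Ltf, lactoferrin, at 3099.8, 2947 and 1808 TPM in the controls and 1919, 1187 and 1329 TPM in the knockout. Their changes of -1.47 ± 0.70 and -0.82 ± 0.78 did not pass (limma adjusted p = 0.0949 and 0.415), but both passed when the 2 groups were fitted alone (0.00839 and 0.0393). Lcn2, lipocalin 2, stood at 4594, 4329 and 2973 TPM in the controls and 3705, 2695 and 2652 TPM in the knockout and did not pass (log2 -0.39 ± 0.40, limma adjusted p = 0.457). The member that rose was Chil3, a chitinase-like protein, at 6670.4, 7282 and 4809 TPM in the controls and 19193, 25467 and 26972 TPM in the knockout (log2 1.94 ± 0.49, limma adjusted p = 0.00356). The list therefore ranged widely, from log2 -5.25 for Camp to 1.94 for Chil3. Chil3 had the highest TPM of it in every library, and the summed TPM of the list was higher in the knockout (28180, 31560 and 33120) than in the controls (23510, 23060 and 14570).

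Of 7 NADPH oxidase genes 3 fell (Cybb, Hvcn1 and Ncf1) and none rose; 2 fell without knockout replicates 2 and 3. Hvcn1, the proton channel that balances oxidase charge, fell by 0.55 ± 0.18 (limma adjusted p = 0.0176), and Ncf1, the p47phox organiser, by 0.42 ± 0.14 (limma adjusted p = 0.023). Both calls were borderline: Hvcn1 did not pass without control replicate 3 (-0.45) or knockout replicate 1 (-0.40), and Ncf1 not without control replicate 1 (-0.37) or 2 (-0.38) or knockout replicate 2 (-0.40) or 3 (-0.39).

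Genes of later neutrophil stages did not move together. Their counts are to be read beside the shares over all tested genes, 32.1% higher and 12% lower, and 21.9% and 23.4% after scaling. In both lists the number that rose was below its share and does not set them apart. In the tertiary granule and secretory list 4 of 16 rose and 1 fell, 3 and 3 after scaling and 0 and 1 without knockout replicates 2 and 3. In the mature surface and signalling list 5 of 25 rose and 6 fell, 3 and 10 after scaling and 3 and 6 on that omission. Cxcr2, the chemokine receptor that brings neutrophils out of the marrow, stood at 119.7, 131 and 116 TPM in the controls and 246, 352 and 315 TPM in the knockout and rose by 1.29 ± 0.14 (limma adjusted p = 5.49e-07). Csf3r, the receptor for the G-CSF in the medium, stood at 72.97, 76.1 and 82.2 TPM in the controls and 145, 220.5 and 187 TPM in the knockout and rose by 1.23 ± 0.16 (limma adjusted p = 5.53e-06). Selplg, the P-selectin ligand, stood at 149.6, 147 and 173 TPM in the controls and 249.9, 299 and 311 TPM in the knockout and rose by 0.87 ± 0.11 (limma adjusted p = 5.69e-06). All 3 knockout libraries exceeded all controls in these receptors and adhesion genes. Mmp8, neutrophil collagenase, stood at 506, 583 and 669 TPM in the controls and 981, 2093 and 1774 TPM in the knockout and rose by 1.40 ± 0.41 (limma adjusted p = 0.00986); it did not pass without knockout replicate 2 (1.18). Stfa2, a cysteine protease inhibitor of a family of near-identical copies, stood at 2927, 3219 and 1954 TPM in the controls and 5979.6, 6759 and 5534 TPM in the knockout and rose by 1.20 ± 0.30 (limma adjusted p = 0.00323), uncertain as to which copy. Slpi, a secreted inhibitor of elastase, stood at 155, 159 and 102 TPM in the controls and 169, 409 and 448 TPM in the knockout and rose by 1.21 ± 0.24 (limma adjusted p = 0.000437), with replicate 1 close to the controls. Mrgpra2a, an antimicrobial peptide receptor with a close copy Mrgpra2b, stood at 12.98, 11.4 and 10.3 TPM in the controls and 1.72, 1.92 and 1.85 TPM in the knockout and fell by 2.15 ± 0.30 (limma adjusted p = 1.17e-05). Retnlg, a resistin-like protein, fell by 1.39 ± 0.40 (limma adjusted p = 0.00816), with overlapping groups; it did not pass without control replicate 2 (-1.10) or knockout replicate 3 (-1.07). Other members that rose were Trem1 (borderline, 0.27 without control replicate 3), S100a6 (borderline, 0.49 without knockout replicate 2) and Cd33 (borderline, 0.43 without knockout replicate 2). Mmp9, gelatinase B, stood at 206, 218 and 174 TPM in the controls and 218, 199.6 and 196 TPM in the knockout, S100a8 at 79134, 81888 and 59473 TPM in the controls and 83296, 84443 and 76908 TPM in the knockout and S100a9 at 67549, 72908 and 51868 TPM in the controls and 80082, 72011 and 67935 TPM in the knockout. None of these 3 passed (limma adjusted p = 0.923, 0.78 and 0.745), and the groups overlapped in each. Ly6g, a common neutrophil surface marker, was not analysed here.

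**Figure D2:**
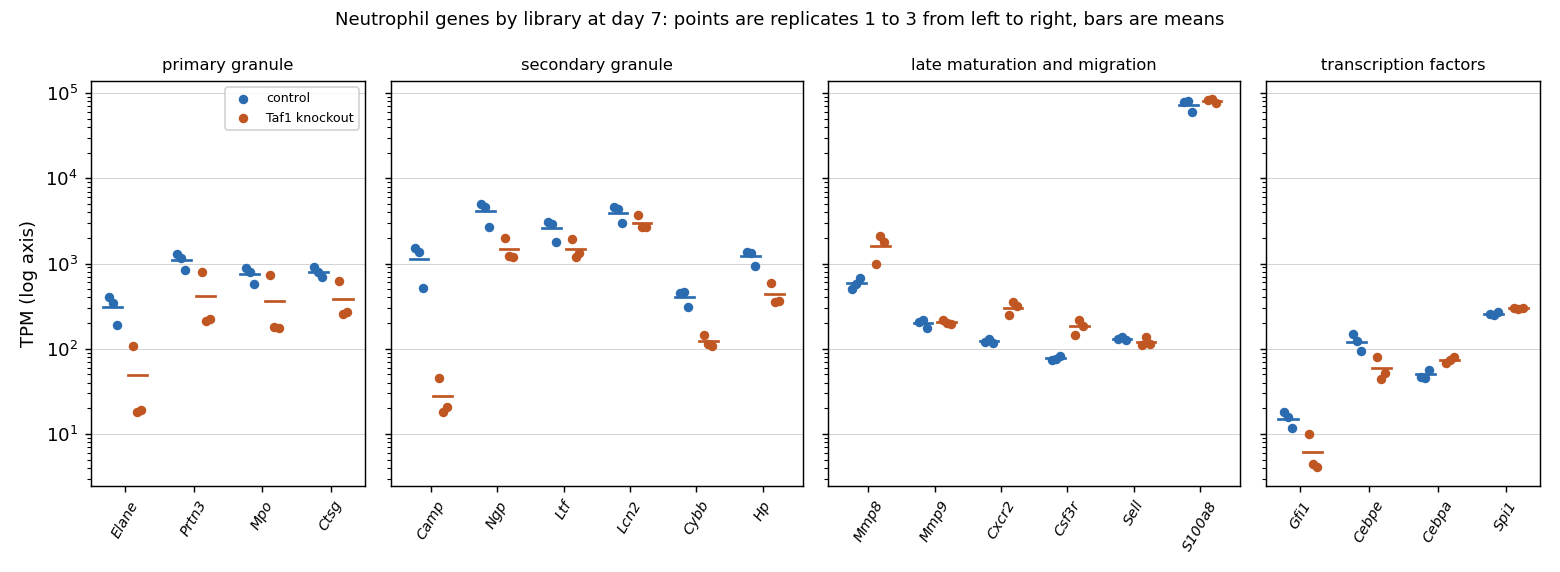
TPM (log axis) of neutrophil genes in each control (blue) and Taf1 knockout (orange) library at day 7 of the granulocyte course, with replicates 1 to 3 from left to right and bars at the group means. Of the granule genes drawn, Elane, Prtn3, Mpo, Ctsg, Camp, Cybb and Hp passed as lower and Ngp, Ltf and Lcn2 did not pass, with replicate 1 the highest knockout point in the 4 primary granule genes, while Cxcr2, Csf3r and Mmp8 are higher and the S100a8 groups overlap.

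Of 20 transcription factors of the granulocyte lineage 7 rose and 6 fell, 3 and 7 after scaling and 2 and 2 without knockout replicates 2 and 3. Without control replicate 1, control replicate 2 or knockout replicate 1, 4 rose. Over all tested genes 32.1% were higher and 12% lower, so the number that rose does not set this list apart. Cebpe, the factor that drives secondary granule genes, stood at 149, 122 and 93.7 TPM in the controls and 80.2, 44.7 and 52.5 TPM in the knockout and fell by 1.04 ± 0.26 (limma adjusted p = 0.00275). Gfi1, a repressor required for neutrophil maturation, stood at 17.9, 15.6 and 11.8 TPM in the controls and 10, 4.42 and 4.05 TPM in the knockout and fell by 1.25 ± 0.23 (limma adjusted p = 0.000209). In both the groups did not overlap, yet neither passed without knockout replicates 2 and 3 (-0.57 and -0.53). Cebpa, which acts earlier in commitment, stood at 46.8, 45.98 and 57.01 TPM in the controls and 67.2, 74.4 and 79.2 TPM in the knockout and rose by 0.55 ± 0.11 (limma adjusted p = 0.000516); it also did not pass on that omission (0.43). Egr2, an early growth response factor, stood at 9.3, 11.7 and 6.75 TPM in the controls and 28.2, 31.3 and 32.5 TPM in the knockout and rose by 1.65 ± 0.21 (limma adjusted p = 4.44e-06). Nr4a1, an orphan nuclear receptor, went from 3.48, 3.53 and 2.7 to 0.78, 0.97 and 1.15 TPM and fell by 1.10 ± 0.13 (limma adjusted p = 1.51e-06). Maf, a factor of macrophage maturation, went from 7.75, 9.85 and 15.4 to 5.76, 5.31 and 5.49 TPM and fell by 0.83 ± 0.15 (limma adjusted p = 0.000161). Runx1, a regulator of blood stem cells, rose by 0.95 ± 0.16 (limma adjusted p = 9.69e-05). Spi1 (PU.1), shared by granulocytes and macrophages, stood at 255, 249 and 271 TPM in the controls and 299.8, 297 and 304 TPM in the knockout. Its change of 0.22 ± 0.087 was just past the threshold (limma adjusted p = 0.0496) and was lost on leaving out any library except control replicate 3 (0.19 to 0.22). After scaling it was 0.01 (limma adjusted p = 0.934).

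Chemokine genes made up 7 of the 15 largest rises. Of 23 tested inflammatory cytokine and chemokine genes 11 rose and 2 fell (11 and 6 after scaling), with a median of 0.72; 9 rose and 2 fell without knockout replicates 2 and 3. Ccl2, Ccl7 and Ccl12, monocyte-attracting chemokines, lie in 1 cluster on chromosome 11 (82035571 to 82103400, mm10). Ccl2 stood at 32.5, 41.1 and 77.02 TPM in the controls and 612, 817 and 770.4 TPM in the knockout and rose by 3.93 ± 0.22 (limma adjusted p = 6.72e-11). Ccl7 stood at 6.32, 8.55 and 21.99 TPM in the controls and 224, 234 and 199.5 TPM in the knockout and rose by 4.23 ± 0.29 (limma adjusted p = 1.7e-09). Ccl12 stood at 0.48, 0.44 and 3.4 TPM in the controls and 35.7, 26.9 and 25.03 TPM in the knockout and rose by 3.82 ± 0.38 (limma adjusted p = 2.38e-07). For all 3 the knockout libraries were close to each other, replicate 1 included, and control replicate 3 was the highest control. Cxcl3, whose promoter is printed above, stood at 4.92, 6.95 and 1.28 TPM in the controls and 81.2, 80.6 and 59.9 TPM in the knockout and rose by 3.96 ± 0.42 (limma adjusted p = 4.74e-07). Ccl6, a myeloid chemokine, stood at 692, 716 and 888 TPM in the controls and 3605, 4778 and 4960 TPM in the knockout and rose by 2.53 ± 0.19 (limma adjusted p = 4.87e-09). Ccl24, an eosinophil-attracting chemokine, stood at 0.88, 0.82 and 1.02 TPM in the controls and 19.3, 16.4 and 21.97 TPM in the knockout and rose by 3.40 ± 0.28 (limma adjusted p = 2.33e-08). These rises were of like size in the 3 knockout libraries. Ccl5, a T cell chemokine, differed more between them, at 0.49, 0.59 and 1.2 TPM in the controls and 9.07, 35.5 and 51.8 TPM in the knockout (log2 3.95 ± 0.48, limma adjusted p = 2.4e-06). Saa3 (above) and the neutrophil chemokine Cxcl1 (borderline, -0.61 without control replicate 2) were the 2 that fell.

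Of 14 tested dendritic cell genes 9 rose and 2 fell, with a median of 1.15; without knockout replicates 2 and 3 9 rose and none fell. The 2 that fell, Bst2 (borderline, -0.28 without control replicate 3) and Tcf4 (borderline, -0.27 without knockout replicate 3), mark plasmacytoid dendritic cells. Ccl22, a chemokine for CCR4-bearing T cells and the largest rise, stood at 0.41, 0.62 and 0.97 TPM in the controls and 10.3, 54.3 and 103 TPM in the knockout and rose by 4.61 ± 0.52 (limma adjusted p = 1.04e-06). Ccr7, the receptor that guides dendritic cells to lymph nodes, stood at 0.18, 0.15 and 0.90 TPM in the controls and 9.41, 37.6 and 58.8 TPM in the knockout and rose by 4.4 ± 0.43 (limma adjusted p = 1.67e-07). Fscn1, an actin-bundling protein, stood at 0.07, 0.12 and 0.38 TPM in the controls and 2.13, 8.4 and 14.2 TPM in the knockout and rose by 2.69 ± 0.35 (limma adjusted p = 5.39e-06). Cacnb3, a calcium channel subunit, stood at 0.14, 0.26 and 0.38 TPM in the controls and 2.92, 9.04 and 17.9 TPM in the knockout and rose by 2.85 ± 0.33 (limma adjusted p = 1.73e-06). In these 4 genes knockout replicate 1 was the lowest and replicate 3 the highest knockout library. All knockout libraries were above every control, which for Ccl22 and Ccr7 was a condition of their choice. The summed TPM of the list was 97.7, 107 and 124 in the controls and 131, 223 and 329.8 in the knockout. Gm13546, an antisense transcript over Cytip, rose by 3.00 ± 0.36 (limma adjusted p = 2.63e-06); as a partner of an overlapping gene its value is uncertain unless reads were counted by strand, which no source used here states. None of 11 tested MHC class II and processing genes rose and 3 fell (H2-DMb1, Ctss and H2-DMa), none of them passing without knockout replicates 2 and 3. Ctss (borderline, -0.35 without control replicate 3) and H2-DMa (borderline, -0.18 without control replicate 3) also lost their calls on several single omissions. H2-DMb1, a peptide-loading chain, stood at 29.8, 33.1 and 39.8 TPM in the controls and 21.2, 18.9 and 25.3 TPM in the knockout and fell by 0.63 ± 0.17 (limma adjusted p = 0.00604).

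Mast cell genes were much higher in knockout replicates 2 and 3. Of 17 tested mast cell and basophil genes 14 rose and none fell, with a median of 1.75. The summed TPM of the list was 1791, 1830 and 2356 in the controls and 2228, 6293 and 7217 in the knockout, so replicate 1 lay within the control range. Without knockout replicates 2 and 3, 4 genes were higher and 1 lower and the median was 0.73. Cpa3, mast cell carboxypeptidase, stood at 222, 225 and 339 TPM in the controls and 731, 2872 and 3157 TPM in the knockout and rose by 2.87 ± 0.41 (limma adjusted p = 1.56e-05). Tpsb2, a tryptase with near-identical copies, stood at 18.9, 17.6 and 31.5 TPM in the controls and 99.2, 427 and 507 TPM in the knockout and rose by 3.61 ± 0.38 (limma adjusted p = 4.15e-07). Cma1, a chymase, stood at 18.1, 14.1 and 28.4 TPM in the controls and 28.2, 152 and 179 TPM in the knockout and rose by 2.19 ± 0.46 (limma adjusted p = 0.000727). For Cpa3 and Tpsb2 replicate 1 was also above the controls, but for Cma1 it was not. Kit, the SCF receptor, stood at 4.46, 4.38 and 6.71 TPM in the controls and 10.4, 20.8 and 23.9 TPM in the knockout and rose by 1.59 ± 0.32 (limma adjusted p = 0.000512). Gata2, a factor of mast cells and progenitors, stood at 8.78, 8.68 and 13.4 TPM in the controls and 20.9, 43.3 and 53.2 TPM in the knockout and rose by 1.76 ± 0.27 (limma adjusted p = 3.34e-05). Tph1, the serotonin-making hydroxylase, stood at 1.45, 1.47 and 5.6 TPM in the controls and 7.46, 54.8 and 76.6 TPM in the knockout and rose by 3.28 ± 0.60 (limma adjusted p = 0.000208). On leaving out these 2 libraries the changes of Kit (0.91), Tph1 (1.31) and Cma1 (0.52) did not pass. Tpsg1, a membrane-anchored tryptase, went from 0.64, 0.48 and 2.02 to 5.48, 28.8 and 35.6 TPM (log2 3.30 ± 0.44, limma adjusted p = 8.63e-06). Serpina3b, a serine protease inhibitor with close copies, stood at 2.55, 2.7 and 3.64 TPM in the controls and 20.4, 29.4 and 46.7 TPM in the knockout (log2 3.00 ± 0.29, limma adjusted p = 1.72e-07), with all knockout libraries above the controls. F2r, the thrombin receptor, stood at 7.96, 7.1 and 19.01 TPM in the controls and 67.3, 192 and 231 TPM in the knockout and rose by 3.68 ± 0.35 (limma adjusted p = 1.39e-07). Ctla2a, a cysteine protease inhibitor, stood at 33.4, 32.6 and 74.7 TPM in the controls and 145, 495 and 575 TPM in the knockout and rose by 2.97 ± 0.36 (limma adjusted p = 2.34e-06). The part of the mast cell signal in the other results was not tested, beyond the values without these 2 libraries.

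**Figure D3:**
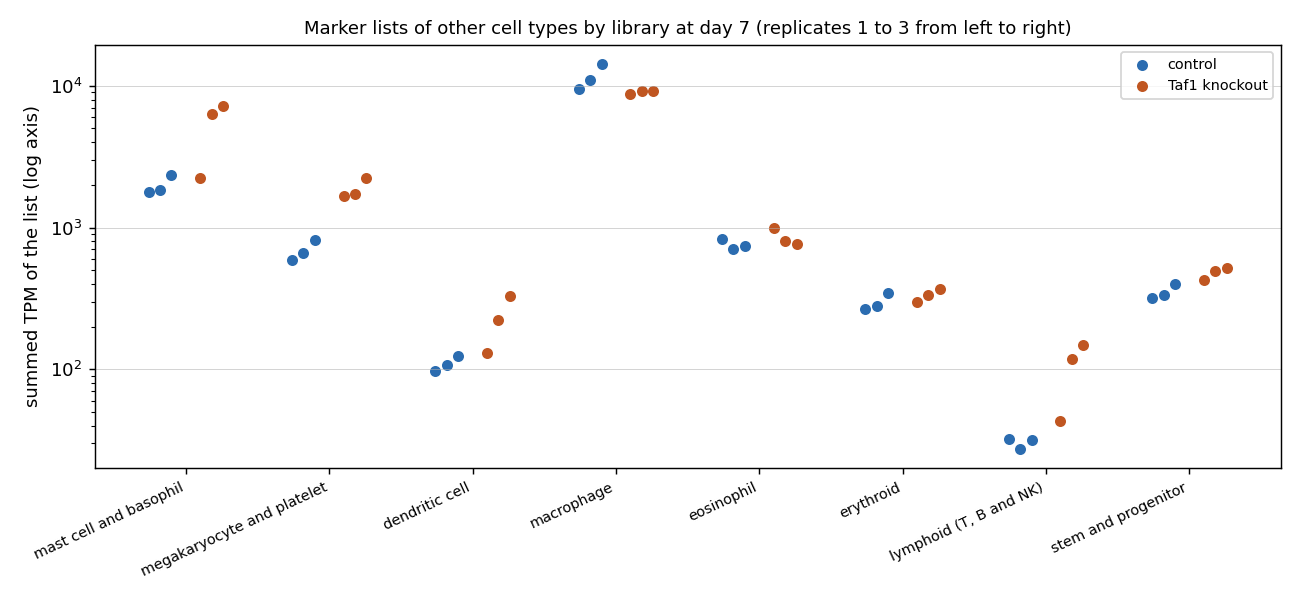
Summed TPM (log axis) of marker lists of other cell types in each control (blue) and Taf1 knockout (orange) library at day 7, replicates 1 to 3 from left to right. Mast cell and basophil sums are 6293 and 7217 TPM in knockout replicates 2 and 3 against 1791 to 2356 in the controls, whereas megakaryocyte and platelet sums are higher in all 3 knockout libraries.

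Megakaryocyte and platelet genes were higher in every knockout library. Of 20 tested genes 14 rose and none fell, with a median of 1.10, and 13 rose without knockout replicates 2 and 3. The summed TPM was 594, 658 and 811 in the controls and 1681, 1714 and 2254 in the knockout. Itga2b (CD41), the platelet integrin chain, stood at 29.8, 29.8 and 48.9 TPM in the controls and 99.05, 165 and 234 TPM in the knockout and rose by 2.12 ± 0.24 (limma adjusted p = 1.34e-06). Treml1, a platelet granule receptor, stood at 8.76, 8.53 and 10.7 TPM in the controls and 32.97, 35.9 and 58.3 TPM in the knockout and rose by 2.03 ± 0.25 (limma adjusted p = 2.68e-06). Gp5, a subunit of the von Willebrand factor receptor, stood at 4.38, 4.06 and 7.61 TPM in the controls and 17.1, 20.8 and 28.9 TPM in the knockout and rose by 1.89 ± 0.22 (limma adjusted p = 1.51e-06). Rab27b, a granule-trafficking GTPase, stood at 2.21, 2.31 and 3.73 TPM in the controls and 8.84, 15.6 and 18.9 TPM in the knockout and rose by 2.01 ± 0.23 (limma adjusted p = 1.4e-06). Of 21 tested erythroid genes 6 rose and 1 fell (median -0.01), 2 and 0 without knockout replicates 2 and 3, and the list sums overlapped between the groups. Over all tested genes 32.1% were higher, so the number of erythroid genes that rose does not set the list apart. Epor, the erythropoietin receptor, rose by 1.18 ± 0.21 (limma adjusted p = 0.000174) from a control level of 0.45, 0.54 and 1.15 TPM. Gata1, shared by the erythroid, megakaryocyte, mast cell and eosinophil lineages, stood at 4.22, 4.01 and 6.66 TPM in the controls and 8.26, 17.3 and 23.7 TPM in the knockout and rose by 1.46 ± 0.28 (limma adjusted p = 0.000359), not without knockout replicates 2 and 3.

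Of 24 tested stem and progenitor genes 15 rose and 2 fell, with a median of 0.98; 8 rose and 1 fell without knockout replicates 2 and 3. Cd34, a progenitor surface protein, stood at 13.2, 14.6 and 16.8 TPM in the controls and 48.9, 41.95 and 38.2 TPM in the knockout and rose by 1.47 ± 0.14 (limma adjusted p = 1.23e-07). Meis1, a homeobox partner of HOXA9, stood at 2.26, 2.6 and 3.85 TPM in the controls and 13.2, 15.6 and 17.9 TPM in the knockout and rose by 2.10 ± 0.19 (limma adjusted p = 5.15e-08). Adgrg1, an adhesion receptor of stem cells, stood at 6.61, 6.52 and 8.76 TPM in the controls and 29.4, 46.02 and 49.2 TPM in the knockout and rose by 2.33 ± 0.22 (limma adjusted p = 1.48e-07). The 3 knockout libraries were close together for Cd34 and Meis1. Lmo1, a LIM-domain cofactor, moved the other way, from 22.3, 18.4 and 12.4 to 1.36, 1.75 and 1.93 TPM, and fell by 2.77 ± 0.21 (limma adjusted p = 7.12e-09). The other that fell was Cd48 (borderline, -0.16 without control replicate 3).

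Cytokine receptor and feedback genes were mostly higher. Of 18 tested genes for the receptors of the culture cytokines and their signalling 13 rose and 1 fell, with a median of 1.02; 9 rose and 1 fell without knockout replicates 2 and 3. Cish, a STAT5-induced inhibitor of cytokine receptors, stood at 2.25, 1.95 and 1.53 TPM in the controls and 11.5, 20.03 and 23.7 TPM in the knockout and rose by 2.69 ± 0.19 (limma adjusted p = 1.7e-09). Socs1, an inhibitor of JAK kinases, stood at 2.16, 1.66 and 3.73 TPM in the controls and 10.9, 26.1 and 25.5 TPM in the knockout and rose by 2.58 ± 0.25 (limma adjusted p = 1.82e-07). Socs3, the feedback inhibitor of the G-CSF receptor, stood at 40.4, 40.1 and 43.9 TPM in the controls and 101.4, 149 and 139 TPM in the knockout and rose by 1.60 ± 0.16 (limma adjusted p = 1.67e-07). Socs2 rose by 1.98 ± 0.25 (limma adjusted p = 3.59e-06). All knockout libraries of these 4 genes were above all controls. The member that fell was Csf1r, the M-CSF receptor, at 219.7, 236 and 319.7 TPM in the controls and 131, 132 and 130.3 TPM in the knockout (log2 -0.96 ± 0.12, limma adjusted p = 4.75e-06). Kit and Csf3r (above) belong to this list as well, and the list shares Kit with the mast cell list.

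Macrophage genes were mostly lower. Of 33 tested genes 22 fell and 4 rose, with a median of -0.83; 14 fell and 1 rose without knockout replicates 2 and 3. Summed, they gave 9501, 10930 and 14290 TPM in the controls and 8746, 9183 and 9153 TPM in the knockout, and 13610 to 18350 TPM in the controls of the macrophage course. Of the 35 list members only Vsig4 and Timd4, markers of some tissue macrophages, were listed at 0 in all 6 libraries. Ly6c2, a surface protein of inflammatory monocytes, stood at 1348, 1294 and 1099 TPM in the controls and 223, 161 and 165 TPM in the knockout and fell by 2.77 ± 0.24 (limma adjusted p = 3.47e-08). Cx3cr1, the fractalkine receptor of monocytes, stood at 20.6, 22.8 and 14.04 TPM in the controls and 3.49, 4.05 and 3.54 TPM in the knockout and fell by 2.08 ± 0.18 (limma adjusted p = 3.79e-08). Marco, a scavenger receptor, stood at 12.4, 17.7 and 9.93 TPM in the controls and 0.30, 0.55 and 0.52 TPM in the knockout and fell by 3.27 ± 0.14 (limma adjusted p = 6.05e-13). The groups were far apart in these 3 genes, which for Marco was a condition of its choice, and the knockout libraries were close to each other. Apoe, apolipoprotein E, stood at 529, 660.2 and 479 TPM in the controls and 207, 63.6 and 58.1 TPM in the knockout and fell by 2.58 ± 0.52 (limma adjusted p = 0.000557); it did not pass without knockout replicates 2 and 3 (-1.41). Aif1 (IBA1), a macrophage actin-binding protein, stood at 11.2, 14.97 and 28.1 TPM in the controls and 3.81, 2.65 and 2.78 TPM in the knockout and fell by 2.14 ± 0.29 (limma adjusted p = 8.96e-06). Ms4a4c, a membrane protein, stood at 19.7, 23.5 and 19.6 TPM in the controls and 5.67, 2.07 and 1.5 TPM in the knockout and fell by 2.56 ± 0.26 (limma adjusted p = 3e-07). Mrc1, Pparg and Cd36 were among the 4 members that rose. Mrc1, the mannose receptor, stood at 65.2, 74.8 and 125 TPM in the controls and 239, 200 and 190.2 TPM in the knockout (log2 1.29 ± 0.32, limma adjusted p = 0.00289).

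Lysosome genes were split, with 6 of 32 higher and 6 lower, 4 and 10 after scaling and 0 and 1 without knockout replicates 2 and 3. Single omissions gave 3 to 15 higher and 0 to 7 lower, with 15 and 0 without control replicate 3. Shares over all tested genes were 32.1% higher and 12% lower, and 21.9% and 23.4% after scaling. Atp6v0d2, a proton pump subunit, stood at 88.2, 109.7 and 108 TPM in the controls and 174, 217 and 206 TPM in the knockout and rose by 0.96 ± 0.29 (limma adjusted p = 0.0104). Hexa, a hexosaminidase chain, stood at 367, 408 and 648 TPM in the controls and 317, 345 and 344 TPM in the knockout and fell by 0.46 ± 0.13 (limma adjusted p = 0.00916), a call that was lost without control replicate 3 (-0.21). Of 10 tested eosinophil genes 3 rose (Gata1, Rnase2a and Ear2) and 4 fell (Epx, Prg3, Ear6 and Prg2), 1 and 2 without knockout replicates 2 and 3. The calls of Ear2 (borderline, 1.60 without knockout replicate 1) and Prg2 (borderline, -1.32 without knockout replicate 2) did not hold on every single omission. Epx, eosinophil peroxidase, stood at 15.9, 11.1 and 15.2 TPM in the controls and 0.52, 0.27 and 0.31 TPM in the knockout and fell by 3.45 ± 0.49 (limma adjusted p = 1.66e-05), and Prg3, a granule protein, went from 19.8, 16.3 and 20.3 to 2.39, 1.47 and 2.93 TPM and fell by 2.62 ± 0.42 (limma adjusted p = 6.04e-05). Rnase2a, an eosinophil ribonuclease of a family with close copies, moved the other way at 4.85, 6.5 and 5.15 TPM in the controls and 27.1, 13.5 and 23.7 TPM in the knockout (log2 1.74 ± 0.38, limma adjusted p = 0.00107). Of 5 tested lymphoid genes 1 rose and 2 fell, 0 and 1 on the same omission. Gzmb, the granzyme also made by mast cells and basophils, stood at 20.9, 16.9 and 22.3 TPM in the controls and 39.8, 115 and 147 TPM in the knockout and rose by 2.09 ± 0.41 (limma adjusted p = 0.000429), not without knockout replicates 2 and 3. Cd79b, a B cell receptor chain, went from 5.71, 5.77 and 6.86 to 2.61, 1.34 and 1.31 TPM and fell by 1.40 ± 0.17 (limma adjusted p = 2.09e-06). Thy1, a surface protein of T cells and stem cells, went from 5.32, 4.31 and 1.6 to 0.36, 0.12 and 0.05 TPM and fell by 1.92 ± 0.39 (limma adjusted p = 0.00057). Cd3e, Cd3g and Cd8a, which define T cells, were listed at 0 in all 6 libraries.

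Interferon-induced genes moved in both directions, 6 of 35 higher and 10 lower, and 5 and 14 after scaling; 2 were higher and 3 lower without knockout replicates 2 and 3, and 6 were lower without control replicate 3. Among all tested genes 32.1% were higher and 12% lower, and 21.9% and 23.4% after scaling. Ifitm3, which blocks viral entry, stood at 617, 599 and 446 TPM in the controls and 238, 189.9 and 166 TPM in the knockout and fell by 1.48 ± 0.16 (limma adjusted p = 6.38e-07). Samd9l, a growth-restraining antiviral gene, stood at 78.3, 94.4 and 51.3 TPM in the controls and 29.6, 29.1 and 26.6 TPM in the knockout and fell by 1.32 ± 0.23 (limma adjusted p = 0.000129). Usp18, which removes ISG15 and damps interferon signalling, stood at 2.5, 2.44 and 6.07 TPM in the controls and 10.97, 18.01 and 19.6 TPM in the knockout and rose by 1.93 ± 0.25 (limma adjusted p = 5.37e-06). Irf7, the regulator of type I interferon, stood at 6.49, 7.4 and 10.2 TPM in the controls and 13.4, 18.6 and 21.9 TPM in the knockout and rose by 1.06 ± 0.17 (limma adjusted p = 4.45e-05). The summed TPM of the list was 3160, 3177 and 2667 in the controls and 1321, 1442 and 1127 in the knockout, so the sum was lower in all knockout libraries while Usp18 and Irf7 were higher in all of them.

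Most p53 target genes rose. Of 27 tested 20 rose and 1 fell, with a median of 0.70; after scaling the counts were also 20 and 1. Sesn1, a stress-induced sestrin, was the one that fell (borderline, -0.30 without control replicate 3). In all, 8 rose and none fell without knockout replicates 2 and 3. Ccng1, cyclin G1, stood at 59.8, 66.1 and 71.7 TPM in the controls and 145, 219.6 and 209.7 TPM in the knockout and rose by 1.5 ± 0.13 (limma adjusted p = 2.72e-08). Phlda3, an inhibitor of AKT, stood at 9.11, 9.95 and 9.68 TPM in the controls and 22.4, 35.4 and 41.2 TPM in the knockout and rose by 1.64 ± 0.19 (limma adjusted p = 1.26e-06). Plk3, a stress-responsive kinase, stood at 9.59, 8.86 and 9.39 TPM in the controls and 18.9, 24.7 and 27.4 TPM in the knockout and rose by 1.25 ± 0.13 (limma adjusted p = 6.38e-07). Aen, an apoptosis-enhancing nuclease, stood at 10.8, 10.7 and 14.6 TPM in the controls and 22.2, 26.8 and 30.7 TPM in the knockout and rose by 1.08 ± 0.14 (limma adjusted p = 5.54e-06). Replicate 1 was the lowest knockout library in each of the 4, and still above all controls. Gdf15, a stress-induced cytokine of the TGF-beta family, stood at 12.01, 11.2 and 31.9 TPM in the controls and 67.3, 71.5 and 74.1 TPM in the knockout and rose by 2.05 ± 0.31 (limma adjusted p = 3.56e-05). Of 16 tested BCL2 family genes 9 rose and 2 fell (Bok and Mcl1, the latter borderline, -0.29 without control replicate 2); 5 rose without knockout replicate 3. They included both killers and protectors: Bbc3 (PUMA), a p53-induced killer, stood at 3.67, 3.91 and 5.85 TPM in the controls and 11.8, 13.6 and 18.8 TPM in the knockout and rose by 1.52 ± 0.26 (limma adjusted p = 0.000131). Bax, a pore former, rose by 0.69 ± 0.16 (limma adjusted p = 0.0017), Bcl2 by 1.02 ± 0.21 (limma adjusted p = 0.000642) and Bcl2l1 (BCL-XL) by 0.74 ± 0.14 (limma adjusted p = 0.000377), the last 2 being inhibitors of apoptosis. Only 1 of the list rose without knockout replicates 2 and 3, and Bax, Bcl2 and Bcl2l1 did not pass.

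Most mitotic genes fell. Of 32 tested 27 fell and none rose, with a median of -0.55; after scaling 29 fell, and without knockout replicate 3 17 fell. Their summed TPM was 1792, 1773 and 1616 in the controls and 1399, 1108 and 1060 in the knockout, below the controls in all 3 libraries. A single gene fell without knockout replicates 2 and 3, and the median was then -0.31. Ccnb1, cyclin B1, stood at 83.5, 78.4 and 76.7 TPM in the controls and 53.5, 41.5 and 40.5 TPM in the knockout and fell by 0.81 ± 0.15 (limma adjusted p = 0.000313). Cenpa, the centromeric histone H3, stood at 65.7, 61.1 and 59.6 TPM in the controls and 44.6, 34.4 and 33.3 TPM in the knockout and fell by 0.73 ± 0.11 (limma adjusted p = 2.98e-05). Ube2c, which supplies ubiquitin to the anaphase-promoting complex, stood at 111, 106 and 93 TPM in the controls and 64.2, 48.9 and 46.8 TPM in the knockout and fell by 0.95 ± 0.16 (limma adjusted p = 0.000113). Hmmr, a spindle protein, stood at 29.8, 31.99 and 26.3 TPM in the controls and 20.2, 16 and 14.4 TPM in the knockout and fell by 0.77 ± 0.14 (limma adjusted p = 0.000161). Of these, Ube2c, Hmmr and Ccnb1 did not pass on that omission. S phase genes were split, with 4 of 40 higher and 5 lower, 3 and 15 after scaling and 2 and 1 without knockout replicates 2 and 3. Of all tested genes 32.1% were higher and 12% lower (21.9% and 23.4% after scaling). Before scaling the number of S phase genes that fell was close to its share and does not set the list apart. The S phase genes that were higher were Rfc2, Pola2, Pole and Gins4 (borderline, 0.24 without control replicate 2). Those lower were Gins1, Tk1, Rrm2 (borderline, -0.35 without knockout replicate 2), Cdt1 (borderline, -0.23 without control replicate 3) and Ccne2 (borderline, -0.28 without knockout replicate 3). Gins1, a subunit of the replicative helicase, stood at 20.3, 17.99 and 22.1 TPM in the controls and 11.3, 8.62 and 7.68 TPM in the knockout and fell by 1.06 ± 0.13 (limma adjusted p = 2.22e-06). Rfc2, a clamp loader subunit, stood at 76.9, 75.7 and 86.8 TPM in the controls and 112, 137 and 144 TPM in the knockout and rose by 0.70 ± 0.12 (limma adjusted p = 0.000161), again not without knockout replicates 2 and 3.

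Of 61 replication-dependent histone genes 31 fell and 1 rose, with a median of -0.52; without knockout replicates 2 and 3 3 fell, 2 rose and the median was 0.09. Those that fell numbered 17, 12 and 16 without control replicate 1, knockout replicate 2 and knockout replicate 3, and 51 without knockout replicate 1. Hist1h2bf stood at 572, 458 and 515 TPM in the controls and 230.1, 121 and 134 TPM in the knockout and fell by 1.72 ± 0.21 (limma adjusted p = 3.6e-06). Hist2h2ab stood at 39.8, 34.1 and 46.8 TPM in the controls and 14.01, 13.5 and 13.2 TPM in the knockout and fell by 1.49 ± 0.18 (limma adjusted p = 2.88e-06). Both encode core histones, and each was lower in all 3 knockout libraries. Hist1h4i, a gene for histone H4, moved the other way at 99.4, 72.5 and 111 TPM in the controls and 167, 171 and 179 TPM in the knockout and rose by 0.88 ± 0.12 (limma adjusted p = 1.42e-05). These genes have near-identical copies, so reads may be split between them. Their mRNAs end without a poly(A) tail, and the libraries were made from total RNA.

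Of 33 Myc and nucleolar genes 23 rose and none fell, with a median of 0.46; 17 rose and 1 fell after scaling, and 5 rose and none fell without knockout replicates 2 and 3. Nop2, a methyltransferase of ribosomal RNA, stood at 23.7, 25.7 and 31.1 TPM in the controls and 43.8, 48.5 and 51.7 TPM in the knockout and rose by 0.82 ± 0.14 (limma adjusted p = 0.000136). Bop1, which processes ribosomal RNA, stood at 27.5, 24.99 and 34.1 TPM in the controls and 51.5, 50.3 and 51.6 TPM in the knockout and rose by 0.81 ± 0.16 (limma adjusted p = 0.000371). Myc itself stood at 16.9, 15.8 and 17.1 TPM in the controls and 37.9, 30.8 and 32.5 TPM in the knockout and rose by 0.98 ± 0.12 (limma adjusted p = 4.56e-06). Of 82 cytosolic ribosomal protein genes 31 fell and 2 rose, with a median of -0.19; after scaling 66 fell and 2 rose, and without knockout replicates 2 and 3 23 fell and 1 rose. Rpsa, the laminin receptor protein of the small subunit, stood at 1329, 1319.7 and 1175 TPM in the controls and 632, 689 and 720 TPM in the knockout and fell by 0.90 ± 0.091 (limma adjusted p = 2.79e-07). Rpl22l1, a paralogue of Rpl22, stood at 192, 206 and 237 TPM in the controls and 111, 106 and 95.6 TPM in the knockout and fell by 1.01 ± 0.14 (limma adjusted p = 1.32e-05). Rpl28 fell by 0.72 ± 0.10 (limma adjusted p = 9.86e-06). Rps27l, a p53-induced paralogue of Rps27, and Rpl26 were the 2 that rose, Rps27l at 232, 236 and 292 TPM in the controls and 349, 464 and 422 TPM in the knockout (log2 0.70 ± 0.12, limma adjusted p = 0.000158). Ribosomal protein genes have many processed copies in the genome, so their reads may be split. In all 3 knockout libraries the summed TPM of the list (87510, 95320 and 98860) was below that of the controls (108400, 109700 and 109900).

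Counts of mitochondrial and protein turnover genes depended on the scaling and on knockout replicates 2 and 3. They are to be read beside the shares over all tested genes, 32.1% higher and 12% lower, and 21.9% and 23.4% after scaling. Of 58 nuclear oxidative phosphorylation genes 33 rose and 1 fell, but 10 and 4 after scaling and 9 and 1 without knockout replicates 2 and 3. The one that fell was Ndufb2, of complex I (log2 -0.73 ± 0.13, limma adjusted p = 0.000162). Ndufb10, a subunit of complex I, stood at 118, 119 and 134 TPM in the controls and 206, 192 and 199 TPM in the knockout and rose by 0.69 ± 0.10 (limma adjusted p = 3.54e-05). Of 77 mitochondrial ribosomal protein genes 33 rose and 3 fell, 18 and 9 after scaling and 10 and 3 without knockout replicates 2 and 3. Mrps26 stood at 34.2, 35.2 and 41.5 TPM in the controls and 59.2, 59.7 and 65.7 TPM in the knockout and rose by 0.72 ± 0.089 (limma adjusted p = 3.18e-06), whereas Mrpl54 went from 89.6, 97.2 and 111 to 52.2, 65.95 and 60.8 TPM and fell by 0.73 ± 0.093 (limma adjusted p = 4.75e-06). Mrps28 and Mrpl48 were the others that fell. Of 34 proteasome genes 7 rose and none fell, but 2 rose and 8 fell after scaling, and without knockout replicates 2 and 3 none did either. Without control replicate 3 11 rose, and without control replicate 1 or 2 or knockout replicate 2 or 3 3 did. Psmd11, a lid subunit, rose by 0.56 ± 0.10 (limma adjusted p = 0.000258). A median near that of all genes (log2 0.17) was seen for the proteasome (0.14), and those of the mitochondrial ribosome (0.24) and oxidative phosphorylation (0.29) were somewhat above it.

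Several metabolic and stress lists gave few calls. Over all tested genes 32.1% were higher and 12% lower. The number of NRF2 and iron genes that rose was close to that share and does not set the list apart. Of 24 cholesterol synthesis genes 1 rose and 5 fell, 1 and 10 after scaling and 0 and 1 without knockout replicates 2 and 3. Those that fell were Fdps, Pmvk, Sc5d, Dhcr7 and Fdft1. Of these, Sc5d (borderline, -0.35 without control replicate 3), Dhcr7 (borderline, -0.42 without knockout replicate 1) and Fdft1 (borderline, -0.51 without control replicate 3) lost their calls on omissions. Dhcr7 did so on leaving out any 1 of the 6 libraries, at changes of -0.42 to -0.48. Fdps, farnesyl diphosphate synthase, stood at 333, 303 and 347 TPM in the controls and 97.8, 88.96 and 91.7 TPM in the knockout and fell by 1.81 ± 0.28 (limma adjusted p = 4.12e-05). Ebp, a sterol isomerase, was the member that rose, by 0.55 ± 0.12 (limma adjusted p = 0.000716). None of 28 glycolysis and hypoxia genes rose and 6 fell, 13 after scaling. Single omissions gave 1 (without control replicate 1 or 2 or knockout replicate 2), 2 (without knockout replicate 3) and 12 (without control replicate 3). Pfkl, liver-type phosphofructokinase, stood at 102, 118 and 61.5 TPM in the controls and 48.98, 37.1 and 37.8 TPM in the knockout and fell by 1.12 ± 0.26 (limma adjusted p = 0.00151); control replicate 3 was the lowest control. Vegfa, the vascular growth factor, stood at 24.99, 28.4 and 8.1 TPM in the controls and 8.61, 4.04 and 4.42 TPM in the knockout and fell by 1.58 ± 0.48 (limma adjusted p = 0.012), but knockout replicate 1 lay within the control range. The call for Vegfa was lost without control replicate 1 (-1.35) or 2 (-1.26) or knockout replicate 2 (-1.40), and none of this list passed without knockout replicates 2 and 3. Of 17 NRF2 and iron genes 6 rose and 1 fell, 3 and 2 on that omission. Ftl1, ferritin light chain, stood at 14941, 15810.2 and 23113 TPM in the controls and 32396, 34272 and 37852 TPM in the knockout and rose by 0.98 ± 0.16 (limma adjusted p = 8.24e-05). Gclc, the first enzyme of glutathione synthesis, stood at 13.1, 13.7 and 17.4 TPM in the controls and 24.2, 37.5 and 39.7 TPM in the knockout and rose by 1.13 ± 0.15 (limma adjusted p = 5.51e-06), and Gclm, its modifier subunit, rose by 0.96 ± 0.13 (limma adjusted p = 6.4e-06). Slc11a1, a metal transporter of phagosomes, was the one that fell (log2 -0.70 ± 0.18, limma adjusted p = 0.00309). For Ftl1, Gclc and Gclm the knockout libraries were above all controls. Of 28 ATF4 target genes 4 rose and 2 fell, and none passed without knockout replicates 2 and 3, with Slc7a5, an amino acid transporter, at 18.7, 17.1 and 17.9 TPM in the controls and 36.2, 39.5 and 43.2 TPM in the knockout (log2 1.10 ± 0.28, limma adjusted p = 0.00317). The others that rose were Slc3a2 (borderline, 0.57 without knockout replicate 3), Vldlr (borderline, 0.96 without knockout replicate 3) and Ddit3 (borderline, 1.13 without knockout replicate 3), and those that fell Nupr1 (borderline, -1.5 without control replicate 3) and Asns (borderline, -0.73 without control replicate 1). Of 24 heat shock and unfolded protein response genes 4 rose and 3 fell, 1 and 7 after scaling and 0 and 2 without knockout replicates 2 and 3, with the disulfide isomerases apart: Pdia4 rose by 0.88 ± 0.15 (limma adjusted p = 0.000107), and Pdia6 fell by 0.40 ± 0.095 (limma adjusted p = 0.00221) and Pdia3 by 0.34 ± 0.089 (limma adjusted p = 0.00466). The chaperones Hspe1 (borderline, 0.40 without control replicate 1), Dnaja1 (borderline, 0.33 without knockout replicate 2) and Dnajb1 (borderline, 0.18 without control replicate 3) also rose, and Manf, a stress-induced secreted factor (borderline, -0.26 without control replicate 3), fell. Of 24 immediate early genes 10 rose and 1 (Nr4a1, above) fell, 5 and 1 without knockout replicates 2 and 3. Ier3, an immediate early regulator of cell survival, stood at 80.6, 83.6 and 69.8 TPM in the controls and 241, 249 and 264 TPM in the knockout and rose by 1.68 ± 0.11 (limma adjusted p = 1.2e-09).

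**Figure D4:**
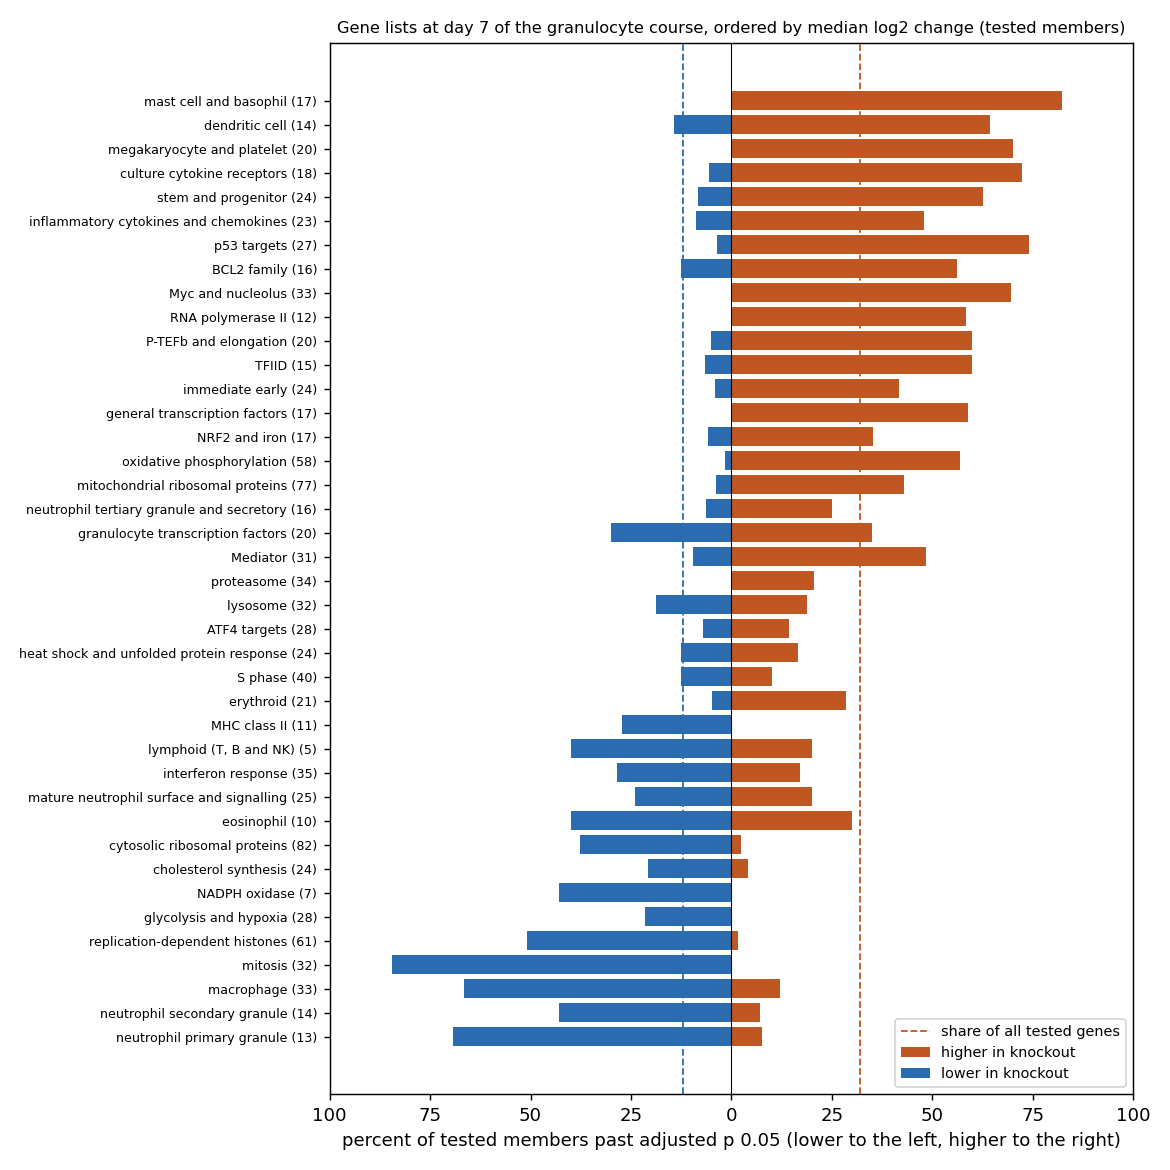
Percent of the tested members of each of 40 gene lists that passed as higher (orange, right) or lower (blue, left) in the Taf1 knockout at day 7, ordered by the median log2 change; the number tested is in brackets. Dashed lines mark the shares over all tested genes, 32.1% higher and 12% lower; the mast cell list is at the top and the primary granule list at the bottom.

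Short RNAs were among the largest falls and are uncertain, because they lie within longer transcripts on the same strand. Snora44, a small nucleolar RNA within Snhg12 (chr4:132309941-132310069, mm10), stood at 783, 544 and 554 TPM in the controls and 121, 69.8 and 41.9 TPM in the knockout and fell by 3.11 ± 0.33 (limma adjusted p = 4.74e-07). Snora26, within Dancr (chr5:74093530-74093650), stood at 261, 281 and 138 TPM in the controls and 37.5, 8.66 and 8.49 TPM in the knockout and fell by 3.84 ± 0.56 (limma adjusted p = 1.98e-05). Mir6516, within Snhg20 and over another short RNA gene, stood at 82.6, 19.8 and 25.01 TPM in the controls and was listed at 0 in all 3 knockout libraries (limma adjusted p = 9.2e-05). Their reads may belong to the host transcripts or be split between them.

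The knockout effect at day 7 was then compared with that at day 5, 2 days earlier, when SCF and IL-3 were still present. The difference of the effects passed for 1680 of 11905 genes (14.1%), 1562 with a higher effect at day 7 (13.1%) and 118 with a lower one (0.991%). The median difference over all genes was log2 0.25 and 0.01 after scaling, which left 950 genes (8.01%). It also moved with single libraries, from 780 genes without knockout replicate 3 to 3276 without knockout replicate 1, and to 216 (1.82%) without knockout replicates 2 and 3. Gdf15 lay below the controls at day 5 and above them at day 7: at day 5 it stood at 70.6, 34.01 and 37.9 TPM in the controls and 9.34, 6.8 and 6.8 TPM in the knockout. The difference of effects was 4.48 ± 0.44 (limma adjusted p = 1.77e-06). Cma1 stood at 68.8, 100 and 98.4 against 12.7, 31.1 and 26.1 TPM at day 5, below the controls, and the difference was 4.15 ± 0.65 (limma adjusted p = 0.000358). Ccl7 had overlapping groups at day 5 (99.8, 84.7 and 86.2 against 131, 68.6 and 70.04 TPM) and a difference of 4.30 ± 0.41 (limma adjusted p = 1.26e-06). The controls of Ccl7 were lower at day 7 than at day 5, and the knockout higher. Cxcl3 likewise stood at 43.8, 14.4 and 15.9 against 10.5, 22.8 and 22.4 TPM at day 5, a difference of 4.25 ± 0.59 (limma adjusted p = 0.000119). Tpsb2 had a difference of 4.19 ± 0.53 (limma adjusted p = 4.21e-05) and Mcpt2, a mast cell protease, of 4.15 ± 1.0 (limma adjusted p = 0.00948); that of Mcpt2 did not pass without knockout replicates 2 and 3 (2.07).

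In the other direction, Saa3 was already lower in the knockout at day 5, at 85.4, 73.9 and 74.5 against 6.15, 6.71 and 8.27 TPM. The difference of effects was -3.02 ± 0.38 (limma adjusted p = 2.96e-05). Mmp14 stood at 3.98, 3.12 and 2.68 against 1.33, 1.04 and 1.25 TPM at day 5 and differed by -2.53 ± 0.28 (limma adjusted p = 6.22e-06). Ms4a4c and Aif1 were near or below 1 TPM in both groups at day 5 and differed by -2.47 ± 0.37 (limma adjusted p = 0.000226) and -2.46 ± 0.41 (limma adjusted p = 0.000625). In these 4 genes the controls were higher at day 7 than at day 5, and the knockout libraries stood below them. By list, against 13.1% of all genes higher and 0.991% lower, 17 of 20 megakaryocyte genes had a higher effect at day 7, 16 after scaling and 7 without knockout replicates 2 and 3. For 32 lysosome genes the counts were 19, 9 and 4. Of 33 macrophage genes 13 had a higher and 6 a lower effect, 6 and 6 after scaling and 4 and 2 without these libraries. For the primary granule list 1 was higher and 1 lower and for the secondary granule list none differed. Csf3r stood at 46.95, 39.1 and 40.4 against 23.3, 35.4 and 33.5 TPM at day 5, below the controls there and above them at day 7, a difference of 1.69 ± 0.22 (limma adjusted p = 6.36e-05). Cxcr2 differed by 1.07 ± 0.20 (limma adjusted p = 0.0013), not without knockout replicates 2 and 3 (0.78). These 2 and Camp were set beside day 5 after their values were seen. Camp, at 318, 1193 and 1246 against 90.7, 55.9 and 59.7 TPM at day 5, differed by -1.74 and did not pass the limma test (adjusted p = 0.184).

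Against the day 7 libraries of the macrophage course, the knockout effect differed for 367 of 11269 genes (3.26%), 181 with a higher effect in the granulocyte course (1.61%) and 186 with a lower one (1.65%). Equal replicate numbers deviated together between the courses only in part. The highest correlation between unequal numbers (0.433 in the controls, 0.346 in the knockout) exceeded some of theirs, so the pairing is uncertain. With the replicate number as a block 1638 genes passed, 874 higher (7.76%) and 764 lower (6.78%). Leaving out single libraries gave 108 genes (without control replicate 2) to 959 (without knockout replicate 1), and 58 remained without knockout replicates 2 and 3. Saa3 stood at 8.1, 5.04 and 9.17 against 7.01, 11.7 and 14.2 TPM in the macrophage course, and the effects differed by -6.81 ± 0.46 (limma adjusted p = 7.63e-05). Apoe was higher in the macrophage course knockout, 138, 148 and 181 against 492, 381 and 284 TPM, and lower in the granulocyte course, a difference of -3.85 ± 0.56 (limma adjusted p = 0.00562). Aif1 did the same, 2.95, 2.75 and 5.11 against 10.5, 10.03 and 8.79 TPM, with a difference of -3.40 ± 0.40 (limma adjusted p = 0.00162). Mmp14 was below 1 TPM in the macrophage course and differed by -3.50 ± 0.26 (limma adjusted p = 0.000126). The changes of these 4 in the macrophage course were 0.49, 1.28, 1.26 and 0.03. Of 35 tested interferon genes 22 had a lower effect in the granulocyte course and none a higher one, against 1.65% of all genes; 31 were lower with the replicate block and 7 without knockout replicates 2 and 3. The block also moved other lists. Of 32 lysosome genes 20 had a lower effect in the granulocyte course with it and 1 without, and of 33 macrophage genes 19 and 5. Of 27 ATF4 target genes 20 had a higher and 3 a lower effect with the block, against 1 and 1 without. Higher effects went from 1 to 7 of 14 secondary granule genes, from 0 to 8 of 28 glycolysis genes and from 3 to 8 of 18 cytokine receptor genes, and lower effects from 1 to 6 of 17 NRF2 and iron genes. Without knockout replicates 2 and 3, fitted with no block, none of these 7 lists had more than 2 genes past the threshold. Ifit3, an interferon-induced antiviral gene, stood at 0.99, 0.97 and 1.42 against 18.1, 29.4 and 14.2 TPM in the macrophage course. It stood at 0.52, 0.60 and 2.66 TPM in the controls and 1.09, 0.14 and 0.46 TPM in the knockout in the granulocyte course, where it did not pass the filter on low values, and the effects differed by -3.74 ± 0.50 (limma adjusted p = 0.00358). In the other direction, Lrg1, a secondary granule glycoprotein, was lower in the macrophage course knockout (35.3, 35.8 and 14.02 against 5.61, 1.8 and 2.39 TPM). It stood at 232, 199.8 and 161 TPM in the controls and 275, 227 and 203 TPM in the knockout in the granulocyte course, and the difference was 3.03 ± 0.52 (limma adjusted p = 0.0125). Pecam1 (CD31), an adhesion molecule, was lower in that course (33.1, 33.1 and 22.1 against 13.8, 6.21 and 9.37 TPM) and higher in the granulocyte course (37.9, 38.1 and 36.4 TPM in the controls and 59.3, 82.01 and 100.9 TPM in the knockout), a difference of 2.59 ± 0.36 (limma adjusted p = 0.00446). Prnp, the prion protein, stood at 29.3, 31.7 and 40.6 TPM in the controls and 144, 323 and 284 TPM in the knockout in the granulocyte course and differed by 2.33 ± 0.36 (limma adjusted p = 0.00755). Ffar2, a short-chain fatty acid receptor, differed by 2.91 ± 0.47 (limma adjusted p = 0.0101), Rufy4, an autophagy adaptor, by 2.35 ± 0.23 (limma adjusted p = 0.000565) and Gm5150, a predicted gene, by 2.31 ± 0.35 (limma adjusted p = 0.0072). The differences of Ifit3, Lrg1, Ffar2, Pecam1 and Gm5150 did not pass without knockout replicates 2 and 3. Camp fell in both courses, with 1959, 1974 and 469 against 77.8, 11.2 and 13.2 TPM in the macrophage course, and the effects differed by 0.42 (limma adjusted p = 0.912).

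**Figure D5:**
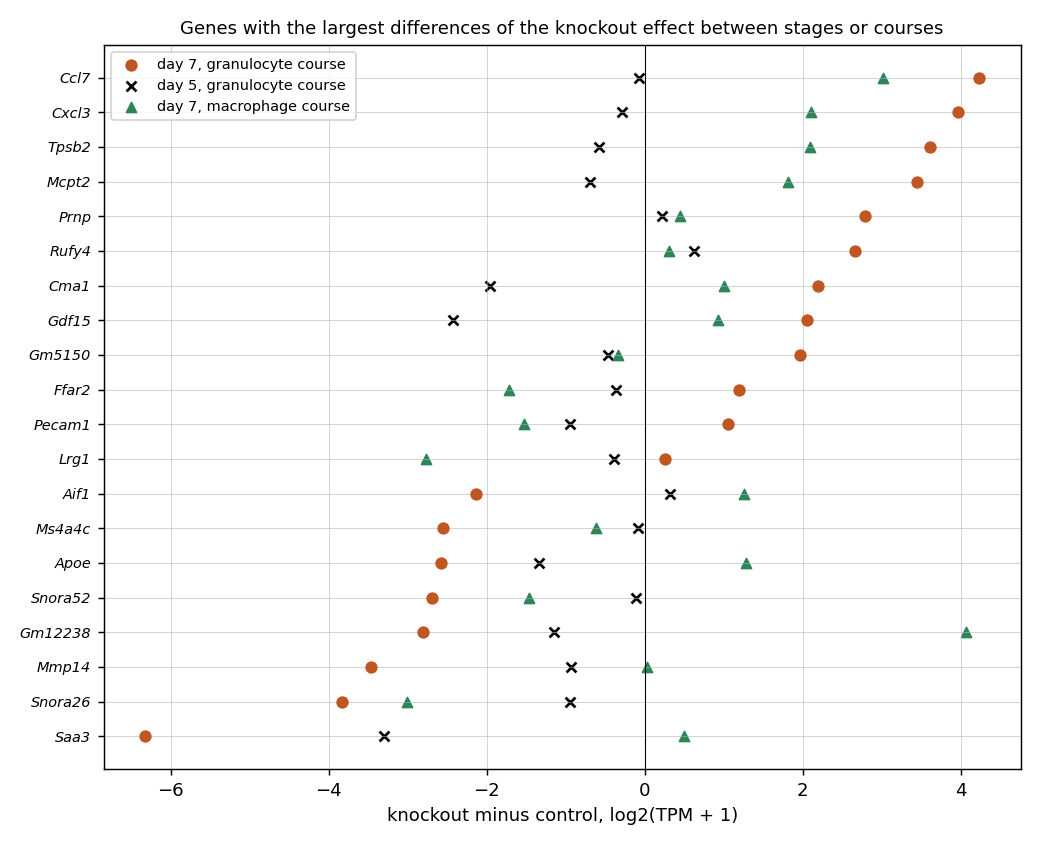
Knockout minus control (difference of mean log2(TPM + 1), horizontal axis) for the genes with the largest differences of the knockout effect, at day 7 of the granulocyte course (orange circles), day 5 of the granulocyte course (black crosses) and day 7 of the macrophage course (green triangles). Saa3 lies at -6.32 in the first, -3.30 in the second and 0.49 in the third, and Ccl7 at 4.23, -0.07 and 3.01.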

How the data were processed

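RNA was measured by total RNA sequencing, and per the submitters' processing notes the sources are RSEM, DESeq2 1.38.3 and the mm10 build; the RSEM version, aligner and annotation are not given in the sources used here. The values analysed are the authors' deposited TPM per gene, 24411 genes in each table, with no read counts, so no count test was run. TPM of 36 libraries in 12 groups of 3 were read as deposited. Genes that reached 1 TPM in 3 or more libraries entered the test, on log2(TPM + 1) with limma 3.58.1 (R 4.3.3), 1 coefficient a group and an intensity-dependent prior, with Benjamini-Hochberg adjustment at 0.05. The comparison of genotypes and its difference from day 5 came from 1 fit of the 24 granulocyte course libraries (16 residual degrees of freedom), and the difference between courses from the 12 day 7 libraries. Named genes were Taf1 and the TFIID subunits, a fixed set of neutrophil genes, the 15 largest changes each way with at least 5 TPM and no overlap, up to 4 members of each of 40 lists by smallest p, and the 6 largest differences each way. Members and lists were chosen with earlier results of these data known. Of 1071 list symbols, 8 were not matched. Positions are those of GENCODE genes on mm10. Samples were grouped by their titles, no batch was labelled, and no 2 libraries were identical. For the difference between courses, the replicate block took equal replicate numbers as paired. Their deviations from the group means correlated at 0.4, 0.267 and 0.637 in the controls and 0.53, 0.323 and 0.323 in the knockout. The highest correlation between unequal numbers was 0.433 in the controls and 0.346 in the knockout. Not every library thus matched its own number best, and the pairing comes from the data, not the labels. On simulated data with 200 changed genes, a log2 change of 1 was recovered in 91% for the genotype comparison (11905 genes), 72.5% for its difference from day 5 (11905 genes) and 65.5% for the difference between courses (11269 genes). A log2 change of 0.5 was recovered in 34.5%, 2% and 1.5%. False calls made up 5.7%, 6.45% and 3.68% of the calls at a change of 1, and 5.48%, 20% and 25% at 0.5. The simulated noise was independent between genes and of equal spread in all groups. In the data 44.1% of genes passed and knockout replicate 1 stood apart from replicates 2 and 3, so these rates may not carry over. Alternatives were other pseudocounts, filters, scalings and samples, a replicate block, and leaving out libraries. A few list members are not reported here.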

Additional observations from a re-analysis of the deposited data

Results flagged for a closer look

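The knockout effect differed between days for 1680 genes by a test of the difference itself. At day 7 of the granulocyte course the effect was lower than at day 5 by a log2 difference of -3.02 for Saa3, -2.88 for Snora26, -2.58 for Snora52, -2.53 for Mmp14, -2.47 for Ms4a4c and -2.46 for Aif1. The 2 small nucleolar RNAs lie within Dancr and Rplp2 on the same strand, so their reads may be split, and neither difference passed on leaving out some single libraries: control replicate 1 (-2.75), control replicate 2 (-2.70), knockout replicate 2 (-2.56) or knockout replicate 3 (-2.54) for Snora26, and control replicate 1 (-2.46), control replicate 2 (-2.50) or knockout replicate 3 (-1.58) for Snora52. The effect was higher at day 7 by 4.48 for Gdf15, 4.30 for Ccl7, 4.25 for Cxcl3, 4.19 for Tpsb2, 4.15 for Cma1 and 4.15 for Mcpt2. The last 3 are mast cell proteases. The summed TPM of the whole mast cell and basophil list was 6293 and 7217 in knockout replicates 2 and 3, against 2228 in knockout replicate 1 and 1791 to 2356 in the controls; the part of mast cells in these differences was not tested.

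Between courses at day 7 the effect differed for 367 genes, again by a test of the difference. It was lower in the granulocyte course by a log2 difference of -6.87 for Gm12238, -6.81 for Saa3, -3.85 for Apoe, -3.74 for Ifit3, -3.50 for Mmp14 and -3.40 for Aif1. Gm12238 is a short transcript inside an intron of G3bp1 on the same strand, and its difference did not pass on leaving out control replicate 2 (-6.78) or knockout replicate 2 or 3 (-6.39 each). The effect was higher in the granulocyte course by 3.03 for Lrg1, 2.91 for Ffar2, 2.59 for Pecam1, 2.35 for Rufy4, 2.33 for Prnp and 2.31 for Gm5150. No explanation was tested for these differences.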

How the results depend on the processing

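The count of 5250 genes for knockout against control stayed within 1.5 times under other pseudocounts, filters, scalings and groups (3958 to 5719) and single omissions (3807 to 5661), and was 1583 (844 higher, 739 lower) without knockout replicates 2 and 3, of which 1501 were among the 5250; that omission was chosen after seeing the data. Median-of-ratios scaling gave 2779 lower genes. Pairing of these libraries by replicate number was uncertain. Equal numbers correlated at 0.256, -0.097 and 0.246, and the highest correlation between unequal numbers was 0.2025. With a replicate block 5465 genes passed here and 1996 for the difference from day 5. That difference (1680) became 950 after scaling, 534 with its groups alone, 852 without histone, short structural RNA and calprotectin genes, 216 without knockout replicates 2 and 3, and 780 to 3276 on leaving out 1 library. The difference between courses (367) became 227 with a filter of 5 TPM, 651 after scaling, 816 without those genes, 1638 with the replicate block, 58 without knockout replicates 2 and 3, and 108 to 959 on leaving out 1 library. Among changes that had not passed, the sign turned for Taf8 (-0.084 after scaling, -0.17 without knockout replicates 2 and 3, and -0.017 to 0.27 on leaving out 1 library), Taf9 (-0.033 after scaling), S100a8 (-0.040 after scaling) and Mmp9 (-0.16 after scaling, -0.045 without histone, short structural RNA and calprotectin genes, and -0.052 to 0.11 on leaving out 1 library). The difference of Camp between courses, which did not pass, lay between -0.0788 and 0.71 on leaving out 1 library. The causes were not tested. Of 279 gene results 113 lost their call without knockout replicates 2 and 3, 16 after scaling and 17 to 38 on leaving out 1 library. TPM gives no depth, so counting error is unknown, and 3 libraries a group limit the precision.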
